A study of Homo sapiens with 12 samples.

Results

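The mitochondrial ribosomal proteins described here are the 78 genes whose symbol is MRPL or MRPS followed by a number and at most a letter from A to C. The rule reads the symbol and no measured value, and they are 78 of the 21599 gene symbols and unnamed identifiers in the count table. The 78 symbols stand for 81 identifiers, since MRPL45, MRPS12 and MRPS18B each have a pair, and counts of a pair were summed. All 78 had enough counts to be tested, with between 108 and 3683 counts of a member in a library. Of the 78, 51 are grouped here with the large subunit and 27 with the small one. MRPS18A and MRPS30 are counted with the large subunit, where their proteins (mL66 and mL65) sit. MRPS36 is counted with the small subunit by its symbol, although its protein, now named KGD4, is known as a part of the 2-oxoglutarate dehydrogenase complex.

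RNA came from RPE1, an immortalised line derived from human retinal pigment epithelium, with a wild-type genotype in all groups. The 3 groups of 4 libraries were DMSO as control, 50 nM doxorubicin, and 50 nM doxorubicin plus 5 µM ferrostatin-1. Doxorubicin is an anthracycline that poisons topoisomerase II, and ferrostatin-1 traps lipid radicals and blocks ferroptosis. Cells were plated into the compounds and kept for 72 h, with fresh ferrostatin-1 at 48 h. None of the 12 libraries had ferrostatin-1 alone, so its effect without doxorubicin cannot be read from them. The labels do not say that the replicates were separate cultures, so p-values measure the spread between these libraries, which may be technical. All libraries are of a single cell line in bulk, in which fewer cells of a type and less RNA per cell cannot be told apart.

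Mitochondria keep a small genome and translate its mRNAs, all of which code for subunits of the oxidative phosphorylation complexes, on a ribosome of their own. The RNA of that ribosome is mitochondrial, but its proteins are encoded in the nucleus, made in the cytosol and imported. Some descend from bacterial ribosomal proteins, and others were added in the mitochondrial lineage. Many of these nuclear genes have short promoters rich in sites for ETS factors such as GABP, for YY1 and for NRF1.

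Promoters are shown for the member with the largest rise and the one with the largest fall in doxorubicin, and for the member called when ferrostatin-1 was added. They are RefSeq sequences of GRCh38.p14, read 5′ to 3′ on the strand of the gene, from 250 bases before to 50 bases after the start. Capitals mark exact matches on either strand to the ETS letters CCGGAAG or the NRF1 letters GCGCATGCG.
MRPL17, chr11:6683291-6683590, minus strand: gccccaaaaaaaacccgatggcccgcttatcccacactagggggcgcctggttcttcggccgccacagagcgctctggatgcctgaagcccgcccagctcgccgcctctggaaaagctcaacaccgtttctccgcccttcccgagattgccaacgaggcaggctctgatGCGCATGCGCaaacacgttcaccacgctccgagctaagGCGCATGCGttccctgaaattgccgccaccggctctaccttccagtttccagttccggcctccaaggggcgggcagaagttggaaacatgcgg
MRPS31, chr13:40771141-40771440, minus strand: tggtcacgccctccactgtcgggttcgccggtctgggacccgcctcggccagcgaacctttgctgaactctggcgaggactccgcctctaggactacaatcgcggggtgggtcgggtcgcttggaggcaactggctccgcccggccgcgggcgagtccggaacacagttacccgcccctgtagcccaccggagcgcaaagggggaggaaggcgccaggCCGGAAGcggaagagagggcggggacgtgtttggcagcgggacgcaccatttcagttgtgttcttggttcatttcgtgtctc
MRPL33, chr2:27771469-27771768, plus strand: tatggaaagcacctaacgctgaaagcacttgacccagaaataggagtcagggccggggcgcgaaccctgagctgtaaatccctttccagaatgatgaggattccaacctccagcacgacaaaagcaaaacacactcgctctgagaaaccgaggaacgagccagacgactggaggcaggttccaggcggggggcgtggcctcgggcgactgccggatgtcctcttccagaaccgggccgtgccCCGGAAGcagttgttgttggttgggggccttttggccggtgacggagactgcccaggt
The MRPL17 promoter holds the NRF1 letters in a pair of stretches, of which the upstream one matches on both strands. The MRPS31 and MRPL33 promoters hold 1 ETS match each. In GENCODE 29 on GRCh38, MRPL17 (ENSG00000158042.9) lies on chromosome 11 from 6680782 to 6683401, MRPS31 (ENSG00000102738.8) on chromosome 13 from 40729135 to 40771173, and MRPL33 (ENSG00000243147.8) on chromosome 2 from 27771717 to 27988087. All 3 are protein-coding.

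Promoters were found for 69 of the 78 members. The ETS letters CCGGAAG were in 29 of them (42.0%), against 19.4% of the 10389 promoters of all tested features. The YY1 letters AAGATGGCG were in 13 (18.8%), against 3.93%. The NRF1 letters GCGCATGCG were in 3 (4.35%), against 3.73%, and the E-box CACGTG, the site of MYC and related factors, in 6 (8.70%), against 9.94%. ETS or YY1 letters stood in 38 member promoters and both in 4, where the matches did not overlap. Of the 29 members with the ETS letters, 2 rose and 11 fell in doxorubicin (median log2 fold change -0.08), and of the 40 without, 3 rose and 15 fell (-0.09). Of the 13 with the YY1 letters, 2 rose and 2 fell, and of the 56 without, 3 rose and 24 fell. Of all tested features 33.4% rose and 33.8% fell. These are counts of letters in a window, and no test was made of them.

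Levels are CPM, counts relative to library size, scaled with TMM factors, as mean ± SD with n = 4. Fold changes are log2 values ± a standard error, taken from edgeR's quasi-likelihood test, and a gene was called at a Benjamini-Hochberg adjusted p below 0.05 over all 13340 tested features. Library totals ran from 17523920 to 24879198 counts, and 3 counts correspond to between 0.124 and 0.172 CPM. Control replicate 1 stood apart: its chi-square per degree of freedom was 6.92 to 12.8 against the other control libraries, which differed from each other by 2.34 to 3.79. In it 5 of the 78 members lay above their control mean, against 73 in control replicate 4. It had 927 CPM of the proliferation gene MKI67, against 665 to 748 in the other controls. Of the markers of retinal pigment epithelium, RPE65 was not among the symbols used here, and RLBP1, TYR and TYRP1 had at most 4, 1 and 5 counts in a library. The summed level of epithelial and pigment epithelium markers was 613 to 705 CPM in control libraries, 1140 to 1190 in doxorubicin and 1130 to 1240 with both compounds, and its part in the results was not tested. Most of that sum was the keratins KRT8 (341 ± 23.4 to 614 ± 8.48 CPM in doxorubicin) and KRT18 (257 ± 16.2 to 488 ± 11.3), which rose. The pigment epithelium factor OTX2 fell from 17.7 ± 0.887 to 11.0 ± 0.688 CPM, MITF had 45.4 ± 0.955 and 45.0 ± 0.943, and 4 of the 7 tested markers did not pass. Summed immune markers, nearly all CD68, were 60.7 to 69.6 CPM in control, 70.6 to 77.7 in doxorubicin and 76.2 to 87.5 with both compounds (1 of 5 tested). Endothelial markers, mainly KDR, were 3.68 to 5.23, 1.5 to 2.14 and 1.02 to 2.04 CPM (1 of 4 tested), and neuronal markers 84.8 to 106, 85.1 to 87.7 and 74.5 to 91.7 CPM (3 of 4 tested). Their part in the results was not tested either. Of 10 proliferation genes, 10 fell in doxorubicin (against 33.8% of all tested features), with a median of -3.56.

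In the control libraries, the members spanned a wide range of levels. Per kilobase of median transcript length, control levels of the 77 members with a known length ran from 4.15 CPM in MRPL50 to 163 CPM in MRPL51, a ratio of 39.3. The median was 30.1 CPM per kilobase, 30.7 over the large subunit and 29.2 over the small one. After MRPL51 came MRPL49 at 129 ± 4.18, and then MRPS34 at 103 ± 12.7, MRPS16 at 95.9 ± 4.31 and MRPS24 at 95.1 ± 12.6, which lie within their spreads of each other. MRPL22 (6.08 ± 0.535) and MRPS31 (7.33 ± 0.581) stood next to MRPL50 at the low end. These ranks depend on the lengths used, which were 3332 bases for MRPL50 and 551 for MRPL51. Without division by length, MRPL50 had 13.8 ± 0.435 CPM and MRPL51 89.85 ± 9.65 CPM in control. Whether the deposited counts were already adjusted for length is not given.

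The members together took 0.358% ± 0.0237 of the counts in control, 0.298% ± 0.00996 in doxorubicin and 0.302% ± 0.0108 with both compounds. On the TMM scale their summed level was 3013, 3310, 3494 and 3585 CPM in the control libraries. It was 2976, 3051, 3230 and 3027 CPM in doxorubicin, and 3208, 3125, 2986 and 3207 CPM with ferrostatin-1 added. On this scale control replicate 1 lay among the treated libraries, and the other 3 controls lay above all 8 of them. That overlap depends on the scaling. With library totals alone the sum was 3257 to 3787 CPM in control, above 2883 to 3114 in doxorubicin and 2878 to 3120 with both compounds. The 51 large-subunit members summed to 1.65 to 1.71 times the 27 small-subunit members in control libraries. This ratio, which does not depend on the scaling of a library, was 1.79 to 1.82 in doxorubicin and 1.78 to 1.84 with both compounds, so the control libraries did not overlap with either treated group. The doxorubicin mean of the ratio was 1.06 times the control mean. Without MRPS16, the most abundant small-subunit member in counts, it was 1.05 times, and with equal weight for each member 1.06 times. Without MRPS16 and MRPS6 it was 1.03 times, with 2.05 to 2.14 in control and 2.15 to 2.19 in doxorubicin, and the libraries with both compounds, at 2.14 to 2.22, then met the control range. These variants were chosen after seeing the data. The sums leave out ribosomal proteins with other symbols. Among these are DAP3, which rose in doxorubicin (0.50), and PTCD3 and AURKAIP1, which fell (-0.14 and -0.18). The ratio was not computed with them added.

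**Figure D1:**
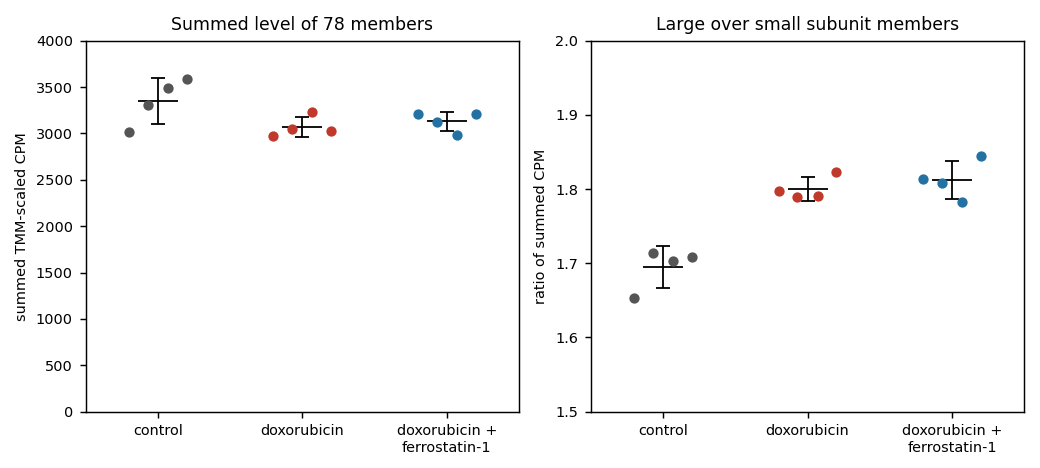
Summed level of the 78 members in TMM-scaled CPM (left) and the ratio of large-subunit to small-subunit members (right, axis from 1.5), by library (points) with the mean and SD (bars, n = 4). Control replicate 1, at 3013 CPM, sits among the treated libraries on the left, while on the right all 4 control libraries, up to 1.71, sit below all 8 treated ones, from 1.78.

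The comparison of doxorubicin with control asked what the drug did to these mRNAs. Falls outnumbered rises and all were modest. Of the 78 members, 31 fell (39.7%, against 33.8% of all tested features), 5 rose (6.41%, against 33.4%) and 42 did not pass. The share that fell was near that of all features, and the share that rose was below it. Fold changes ran from -0.61 to 0.42, which is 0.656 to 1.34 times the control level. None of the 78 was called with a change of 2-fold or more, against 14% of all tested features, and edgeR gave 36 members an unadjusted p below 0.05. The 4 libraries of each group did not overlap for 29 members (37.2%, against 60.5% of all features), 5 of them higher and 24 lower in doxorubicin. Standard errors were between 0.0472 and 0.119.

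The members' median fold change was -0.09, against -0.01 over all tested features. With libraries scaled by their totals alone, the median over all features moved to -0.15 and that of the members to -0.23, so the members stayed 0.08 lower than all features. Under that scaling 52 members were called lower and 4 higher, and calls over all features were 3250 higher and 5824 lower, where TMM scaling gave 4453 and 4503. Without control replicate 1, 37 members were called lower and 5 higher, and of all 13468 features then tested 4391 were lower and 4391 higher. The small subunit held 14 falls and 1 rise among 27 members (median -0.16), and the large subunit 17 falls and 4 rises among 51 (median -0.05). For these and the classes that follow, 33.8% of all tested features fell and 33.4% rose. The difference between the subunits was not tested. Large-subunit members with a bacterial homologue had 11 falls and 1 rise among 29, and those found in mitochondria alone 6 falls and 3 rises among 21. In the small subunit, those with a bacterial homologue had 7 falls and 1 rise among 16, and mitochondria-specific ones 6 falls and 0 rises among 10.

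**Figure D2:**
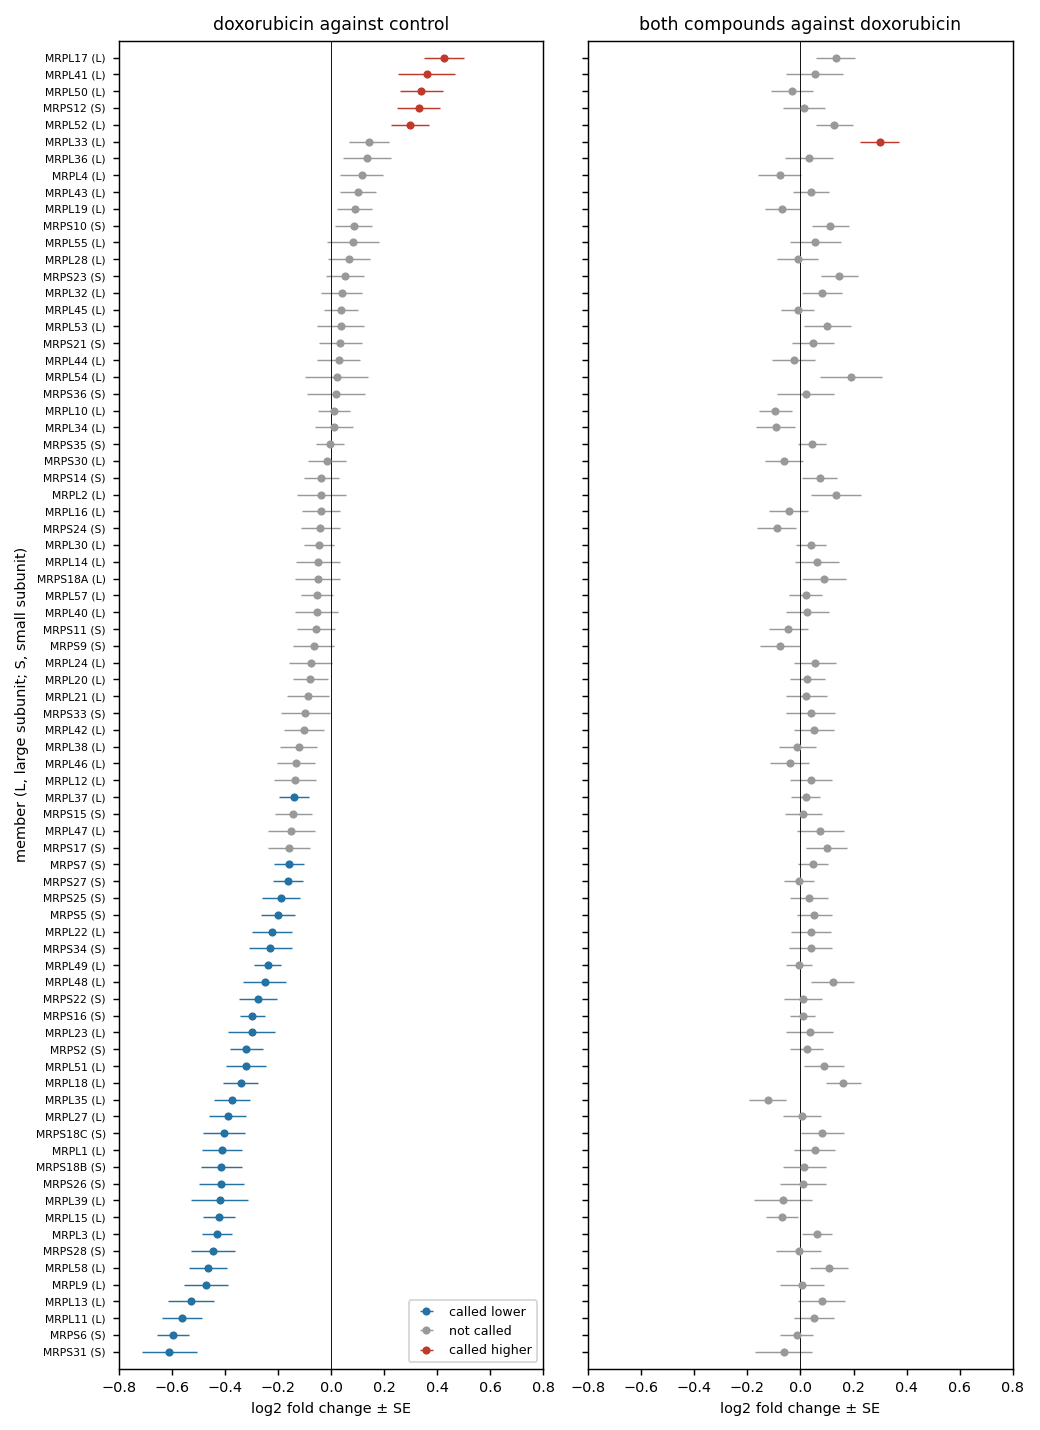
Log2 fold change ± SE of each of the 78 members, ordered by doxorubicin against control (left) and shown in the same order for both compounds against doxorubicin (right). On the left 31 members are called lower and 5 higher, from -0.61 to 0.42, and on the right MRPL33 is called, at 0.30.

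Among the falls, MRPS31, a mitochondria-specific protein of the small subunit, had the largest. Its control libraries had 11.4, 9.54, 10.7 and 11.3 CPM, and its doxorubicin libraries 7.22, 7.43, 5.79 and 7.70. All 4 treated libraries were below all controls (-0.61 ± 0.104, edgeR adjusted p = 3.7e-05). Its pseudogene MRPS31P4 held 28.6% as many counts as MRPS31 over all libraries and itself fell from 2.89 ± 0.953 to 1.82 ± 0.139 CPM, and reads may be split between the copies, so the value for MRPS31 is uncertain. MRPS6, a small-subunit protein of the bacterial S6 family, had 63.9, 73.5, 74.3 and 74.3 CPM in control and 45.3, 47.4, 47.9 and 48.7 CPM in doxorubicin. The groups stood well apart (-0.60 ± 0.0617, edgeR adjusted p = 5.45e-08). SLC5A3, a myo-inositol transporter gene whose exons overlap those of MRPS6 on the same strand, fell as well (-0.56), from 125 ± 11.4 to 85.2 ± 4.64 CPM. Counts of this pair cannot be told apart with certainty. In all, 40 of the 77 members with a position share exon sequence with another annotated gene. The library kit does not mark strand, so overlapping genes on opposite strands are not kept apart by strand either.

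MRPL11, at the base of the stalk where translation factors bind, had 37.9, 41.2, 44.6 and 48.4 CPM in control and 29.6, 27.1, 30.9 and 29.01 in doxorubicin. It fell by 0.56 ± 0.0746 on the log2 scale (edgeR adjusted p = 1.65e-06), while PELI3, with which it shares exon sequence, rose (0.34). MRPL10, the stalk protein that carries the MRPL12 copies, had 34.0 ± 2.17 CPM in control and 34.2 ± 1.86 in doxorubicin (0.01 ± 0.0616, edgeR adjusted p = 0.889). MRPL12, which also binds the mitochondrial RNA polymerase, had 77.9, 94.2, 106 and 102 CPM in control and 81.4, 83.5, 92.9 and 87.4 in doxorubicin. These overlap through control replicate 1 (-0.14 ± 0.0787, edgeR adjusted p = 0.133). Without that library MRPL12 was called lower (-0.22, edgeR adjusted p = 0.00472), and likewise with library totals (-0.28, 0.00358). Of the 5 stalk members 1 fell and 4 did not pass, and with library totals 2 were called lower. Of all 13340 tested features 33.8% fell, and with library totals 5824 were called lower.

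Further falls lay elsewhere in the large subunit. MRPL3, a core protein near the peptidyl transferase centre, had 93.7, 94.5, 92.7 and 93.9 CPM in control and 70.5, 64.6, 77.9 and 65.1 in doxorubicin (-0.43 ± 0.0567, edgeR adjusted p = 1.48e-06). Its control libraries were within 2 CPM of each other. MRPL58, a peptidyl-tRNA hydrolase that rescues stalled ribosomes, had 18.6, 18.2, 20.2 and 20.7 CPM in control and 13.1, 14.2, 15.3 and 13.7 in doxorubicin (-0.46 ± 0.0712, edgeR adjusted p = 1.01e-05). MRPL13, a protein of the bacterial L13 family, fell from 28.6 ± 3.78 to 19.8 ± 1.28 CPM. It overlaps MTBP, which fell by 2.53 on the log2 scale. MRPL9 fell from 55.9 ± 4.70 to 40.3 ± 3.65 CPM, and MRPS28, of the small subunit, from 15.1 ± 1.52 to 11.1 ± 0.421. MRPS22, a mitochondria-specific small-subunit protein whose exons overlap those of COPB2, fell from 30.1 ± 1.80 to 24.8 ± 2.41 CPM (-0.28 ± 0.0712, edgeR adjusted p = 0.0021; -0.42 with library totals), while COPB2 rose (0.43). For each of these the 4 doxorubicin libraries were below all 4 control libraries.

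The MRPS18 family gives a comparison within 1 bacterial ancestor. MRPS18A, MRPS18B and MRPS18C all descend from S18, and their proteins sit at separate sites, MRPS18A in the large subunit. MRPS18B (mS40) had 39.6, 51.5, 51.8 and 52.5 CPM in control and 34.8, 36.9, 40.0 and 35.0 in doxorubicin (-0.41 ± 0.0786, edgeR adjusted p = 0.000118). The highest doxorubicin library lay just above control replicate 1. MRPS18C, which occupies the S18 site, had 20.1, 22.9, 22.7 and 25.2 CPM in control and 16.6, 18.3, 17.8 and 16.0 in doxorubicin (-0.40 ± 0.0793, edgeR adjusted p = 0.000167). Its overlapping neighbour ABRAXAS1 fell by 0.23. MRPS18A had 20.5, 23.0, 25.7 and 23.6 CPM in control and 19.6, 23.6, 22.3 and 24.0 in doxorubicin (-0.05 ± 0.0839, edgeR adjusted p = 0.605). Its groups overlapped. MRPS30, the other large-subunit protein with an MRPS symbol, had 35.5 ± 1.31 and 35.1 ± 2.24 CPM (-0.01 ± 0.0721, edgeR adjusted p = 0.872), and MRPL45, which ties the ribosome to the inner membrane, 30.3 ± 1.501 and 31.0 ± 2.25 CPM (0.04 ± 0.0641, 0.635).

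The 5 rises were MRPL17, MRPL41, MRPL50, MRPL52 and MRPS12. MRPL17, of the bacterial L17 family near the exit tunnel, had 39.5, 47.8, 49.8 and 51.5 CPM in control and 57.3, 64.5, 70.2 and 61.1 in doxorubicin (0.42 ± 0.0754, edgeR adjusted p = 5.6e-05). Every doxorubicin library was above every control library. MRPL41, a mitochondria-specific protein, had 35.7, 49.9, 53.1 and 58.7 CPM in control and 61.3, 60.9, 64.8 and 66.7 in doxorubicin (0.36 ± 0.108, edgeR adjusted p = 0.00651). The control values were widely spread, and with library totals alone MRPL41 was not called (0.22, edgeR adjusted p = 0.073). Without control replicate 1 its fold change was 0.23 (edgeR adjusted p = 0.0135). MRPL50 had 14.0, 13.2, 14.1 and 14.1 CPM in control and 17.3, 18.4, 18.8 and 15.4 in doxorubicin (0.34 ± 0.0818, edgeR adjusted p = 0.00114). MRPL52 rose from 49.1 ± 5.62 to 60.3 ± 2.46 CPM (0.30 ± 0.0708, edgeR adjusted p = 0.00107). MRPS12, a protein of the decoding centre, rose from 41.9 ± 5.31 to 52.6 ± 3.30 CPM (0.33 ± 0.0817, edgeR adjusted p = 0.00146). Its counts fall on a pair of identifiers, 55.1% on the larger, and with these kept apart it was not called (0.25, edgeR adjusted p = 0.109). SARS2, which shares exon sequence with MRPS12, fell by 0.49. With library totals MRPL50, MRPS12 and MRPL52 had smaller fold changes of 0.20, 0.19 and 0.16 and stayed just inside the threshold (edgeR adjusted p = 0.0382, 0.0415 and 0.0492).

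**Figure D3:**
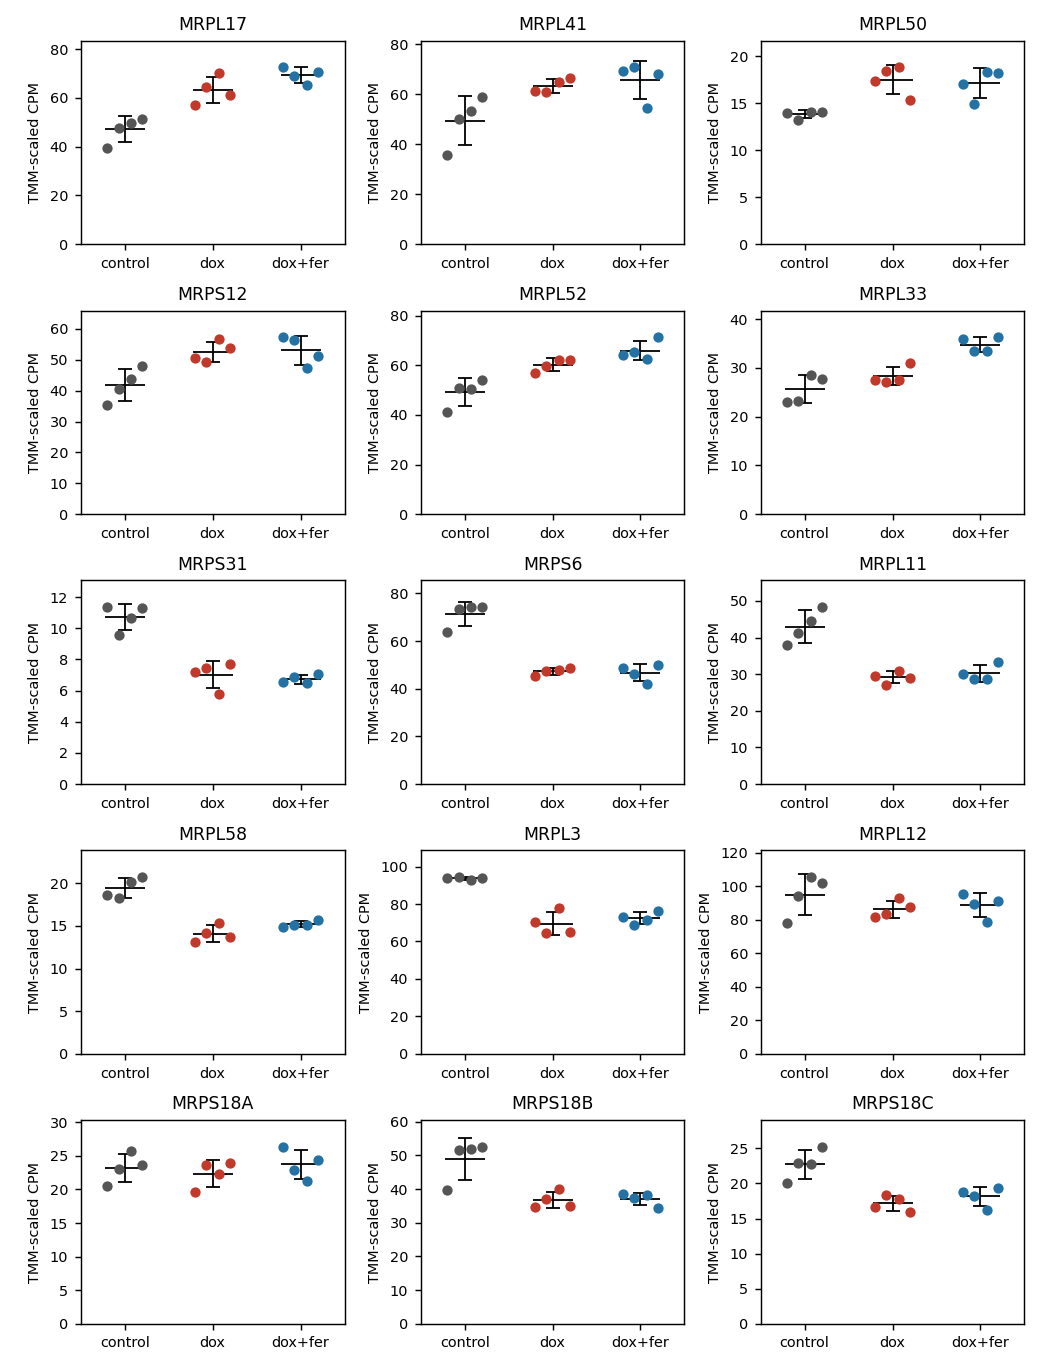
TMM-scaled CPM of 15 members in each library (points) with the mean and SD (bars, n = 4), for control, doxorubicin (dox) and doxorubicin with ferrostatin-1 (dox+fer), each axis from 0. MRPL17 and MRPL50 lie higher and MRPS31 and MRPS6 lower in both treated groups, and MRPL33 stands at 33.4 to 36.3 CPM with ferrostatin-1 against 27.0 to 31.0 CPM in doxorubicin.

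The comparison of both compounds with doxorubicin asked what ferrostatin-1 added in doxorubicin-treated cells. MRPL33 rose, and the other 77 members did not pass. This is 1 of 78 called higher (1.28%, against 2.36% of all tested features) and 0 called lower (against 3.28%). DESeq2's Wald test also gave 1 higher and 0 lower, and 2 members, MRPL33 and MRPL18, had an unadjusted p below 0.05 in edgeR. Fold changes ran from -0.12 to 0.30 with a median of 0.03. The libraries of the groups did not overlap for 4 members (5.13%, against 11.2%), MRPL33, MRPL18 and MRPL52 higher and MRPS24 lower.

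MRPL33, a small protein of the bacterial L33 family, had 27.6, 27.0, 27.6 and 31.0 CPM in doxorubicin and 35.8, 33.4, 33.5 and 36.3 CPM with ferrostatin-1 added. All 4 libraries with ferrostatin-1 were higher (0.30 ± 0.073, edgeR adjusted p = 0.0169). In control it had 23.1, 23.1, 28.4 and 27.7 CPM, and doxorubicin against control did not pass (0.14 ± 0.075, edgeR adjusted p = 0.0993). The call was lost in 5 of the 12 fits that left out a library: without doxorubicin replicate 1, 2 or 3 (edgeR adjusted p = 0.0601, 0.0731 and 0.0546) and without replicate 1 or 4 of both compounds (0.0576 and 0.0615), with fold changes of 0.28 to 0.29. BABAM2, whose exons overlap those of MRPL33 on the same strand, had 29.7 ± 2.36 CPM in doxorubicin and 28.1 ± 1.63 with ferrostatin-1 (-0.08, edgeR adjusted p = 0.627). MRPL18, a large-subunit protein, had 37.7, 37.4, 36.7 and 36.2 CPM in doxorubicin and 38.4, 42.6, 40.9 and 43.6 with ferrostatin-1 (0.16 ± 0.0665, edgeR adjusted p = 0.218).

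Both compounds against control shares its control libraries with the first comparison and its ferrostatin-1 libraries with the second, so it is no independent repeat of them. In it 27 members fell (34.6%, against 34.2% of all tested features), 8 rose (10.3%, against 33%) and 43 did not pass. Groups did not overlap for 27 members (34.6%, against 59.5%). With library totals alone 49 fell and 5 rose, so the share of calls that were higher went from 22.9% to 9.26%. Over all features that scaling moved the calls the same way, from 4407 higher and 4563 lower to 3237 and 6012. Without control replicate 1, 34 fell and 7 rose, and of all 13468 features then tested 4479 fell and 4364 rose. By gene, 26 members fell and 5 rose in both comparisons with control, and 38 were called in none of the 3 comparisons. The share of all tested features with these patterns was not computed. Between the treated groups 2.36% of all tested features were called higher and 3.28% lower. The 5 members called lower in doxorubicin and not with both compounds (MRPL37, MRPL48, MRPS5, MRPS7 and MRPS25) had fold changes of -0.16 to -0.11 with both compounds against control, and they were not called between the treated groups.

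MRPL33 had 34.7 ± 1.53 CPM with both compounds against 25.6 ± 2.88 in control (0.44 ± 0.0731, edgeR adjusted p = 2.38e-05). MRPS23, a mitochondria-specific small-subunit protein, had 32.0, 38.4, 38.9 and 40.3 CPM in control and 41.5, 44.3, 40.5 and 45.5 with both compounds (0.20 ± 0.0702, edgeR adjusted p = 0.0169). It was not called without control replicate 1 (0.13, edgeR adjusted p = 0.0645), without replicate 4 of both compounds (0.17, 0.0556), or with library totals (0.05, 0.492). MRPL17 had 69.4 ± 3.13 CPM with both compounds (0.56 ± 0.0746, edgeR adjusted p = 1.68e-06), the largest rise of a member. On the lower side MRPL35, of the bacterial L35 family, had 36.2 ± 1.66 CPM in control and 25.7 ± 2.05 with both compounds (-0.50 ± 0.0682). MRPL15 had 56.7 ± 4.78 and 40.3 ± 1.16 CPM (-0.49 ± 0.0585), and MRPL39 17.8 ± 2.54 and 12.7 ± 0.998 CPM (-0.49 ± 0.106). For these 3 all libraries with both compounds were below all control libraries.

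The rest of the mitochondrial translation system went both ways in doxorubicin, as did all tested features (33.8% lower, 33.4% higher). Of 5 mitoribosomal proteins with other symbols, 1 rose, 2 fell and 2 did not pass. DAP3, a GTP-binding protein of the small subunit, rose from 55.6 ± 4.16 to 78.7 ± 2.66 CPM (0.50 ± 0.0569, edgeR adjusted p = 1.96e-07), more than any of the 78 members. PTCD3 and AURKAIP1, also of the small subunit, fell by 0.14 and 0.18. Of 30 genes of ribosome assembly and rRNA modification, 14 fell, 5 rose and 11 did not pass (median -0.17). METTL17, needed to assemble the small subunit, fell from 38.4 ± 2.18 to 22.3 ± 1.17 CPM (-0.78 ± 0.0626). MRM2, an rRNA methyltransferase, fell by 0.62 ± 0.0727 and AFG3L2, of the protease that matures MRPL32, by 0.41 ± 0.0529.

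Of 17 translation factors 6 fell, 5 rose and 6 did not pass, where 33.8% of all tested features fell and 33.4% rose. GFM2, which splits the ribosome after termination, rose from 30.2 ± 1.53 to 44.3 ± 4.35 CPM (0.55 ± 0.0674), and GUF1, an elongation factor homologue, fell from 36.8 ± 1.36 to 26.5 ± 1.20 (-0.47 ± 0.0622). OXA1L, which inserts new proteins into the inner membrane, rose by 0.33 ± 0.0505. Of 20 aminoacyl-tRNA synthetases and amidotransferase subunits 5 fell, 4 rose and 11 did not pass. VARS2, the valyl enzyme, fell from 37.8 ± 0.811 to 26.1 ± 0.714 CPM, while GATC rose from 46.5 ± 0.858 to 58.6 ± 1.32. The medians of both lists (0.01) turned to -0.13 with library totals, while the median over all tested features went from -0.01 to -0.15. Of 32 import and folding genes 13 fell, 10 rose and 9 did not pass (median -0.11). HSPD1 and HSPE1, the chaperonin pair of the matrix, fell by 0.56 ± 0.0509 and 0.62 ± 0.0667, and TIMM10, a chaperone between the membranes, by 0.75 ± 0.0824.

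Larger falls lay among genes that act on the mitochondrial genome. TFAM, which packages mitochondrial DNA and starts its transcription, fell from 62.1 ± 3.33 to 30.2 ± 0.1801 CPM (-1.04 ± 0.0576, edgeR adjusted p = 4.06e-12). MGME1, a nuclease of its replication, fell from 31.5 ± 1.60 to 14.9 ± 0.600 CPM (-1.08 ± 0.0762), and TOP1MT, its topoisomerase, rose from 8.12 ± 0.513 to 11.0 ± 0.308. The list of 10 held 2 falls, 2 rises and 6 genes that did not pass. Over all tested features, 33.8% were lower and 33.4% higher. Among 9 tested regulators, 6 fell, 2 rose and 1 did not pass (median -0.31). NRF1 fell from 17.0 ± 1.10 to 7.49 ± 0.989 CPM (-1.18 ± 0.0966, edgeR adjusted p = 1.61e-09), and YY1 from 125 ± 3.59 to 95.9 ± 3.87 (-0.38 ± 0.0452). ESRRA, a nuclear receptor of energy metabolism, rose from 38.9 ± 3.93 to 56.4 ± 1.06 CPM (0.54 ± 0.0693). GABPA, which binds the ETS letters, fell from 37.1 ± 1.13 to 32.2 ± 1.27 CPM (-0.20 ± 0.0775, edgeR adjusted p = 0.0272). The GABP genes GABPB1 (-0.74 ± 0.0958, edgeR adjusted p = 1.13e-06) and GABPB2 (-0.67 ± 0.116, edgeR adjusted p = 4.14e-05) fell more. These GABP genes were picked after their values were seen.

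The mRNAs that the mitochondrial ribosome translates rose together. All 13 rose in doxorubicin, against 33.4% of all tested features, by 0.22 to 0.85 on the log2 scale with a median of 0.56. With library totals 12 of them were called higher, against 3250 of all 13340 tested features. MT-CO1, a subunit of cytochrome c oxidase, rose from 8409 ± 228 to 14440 ± 230 CPM (0.78 ± 0.0357, edgeR adjusted p = 1.88e-13). The 13 mRNAs together held 2.91% ± 0.123 of counts in control and 3.97% ± 0.0862 in doxorubicin. The mitochondrial rRNAs MT-RNR1 and MT-RNR2 were not among the symbols used here, so this share leaves them out. In the mitochondrial lists, the genes called when ferrostatin-1 was added were TOMM7, of the import pore of the outer membrane (0.36 ± 0.0789, edgeR adjusted p = 0.00825), and MT-ND6 (0.17), both higher, and MT-CO3 (-0.20) and MT-ATP6 (-0.21), both lower. In the other lists 2 of 10 proliferation genes and 1 neuronal marker were called lower, and 1 pigment epithelium marker higher. Of all tested features 3.28% were called lower and 2.36% higher.

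**Figure D4:**
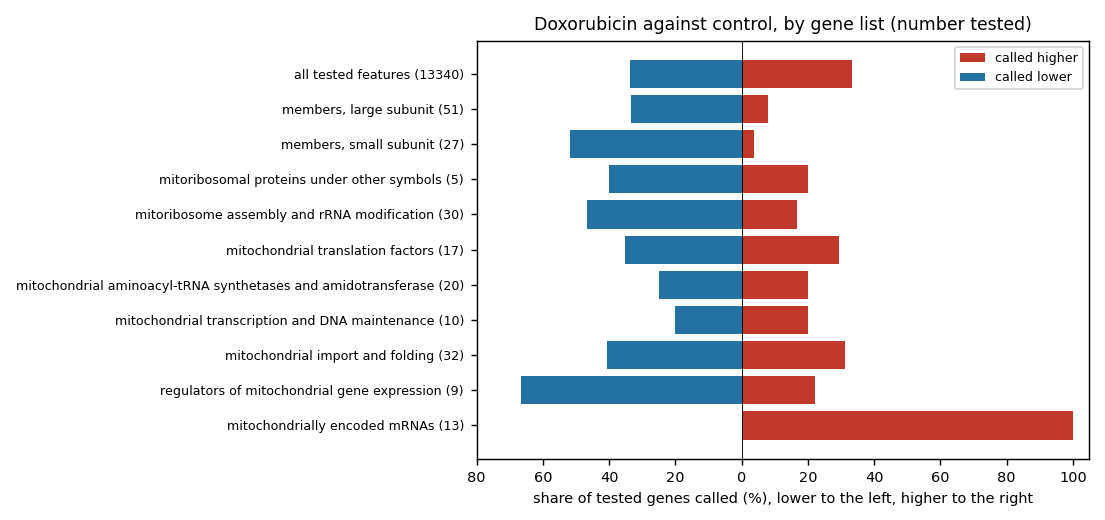
Share of tested genes called lower (left of 0) and higher (right of 0) in doxorubicin against control, for all tested features, the members by subunit and each list (number tested in brackets). Of all features 33.8% were lower and 33.4% higher, while the 13 mitochondrially encoded mRNAs were all higher.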

How the data were processed

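Per the labels' protocols, paired-end libraries were made from total RNA with a kit that does not mark strand. The deposited values are whole-number counts per gene; Salmon, DESeq2 and the build GRCh38 appear in the submitters' processing notes, without versions, and whether the authors adjusted counts for length is not given in the sources used here. Each column name gives its group, and 0 columns lacked one. Counts were summed per symbol over the whole table, filtered with filterByExpr (minimum count 10, total 15), scaled by TMM and fitted with edgeR 4.0.16 (R 4.3.3, limma 3.58.1) in a quasi-likelihood model with 1 mean per group on all 12 libraries. Tests are two-sided, with 3 contrasts adjusted separately over all features. DESeq2 1.42.0 served as an alternative, and the script was tested on simulated data. The standard error is the absolute log2 fold change over the square root of F. Limits of 3 counts cover counting error only.

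The members are set by a rule on symbols, and this rule and the lists were chosen with earlier results of these data known. The text names, per contrast, up to 8 members with the largest called rise and fall whose groups do not overlap, and 12 anchor members. It also names up to 3 called genes per list with the smallest p. MRPL18, MRPS24, overlapping neighbours, pseudogenes, GABPA, GABPB1 and GABPB2 were added after their values were seen. Members named only for their control level or their pattern of calls across comparisons also lie outside these choices. Lengths are medians of GENCODE 29 basic coding transcripts; exon overlaps are from the same release. A single gene that this rule picked is not reported here, though counts over its list include it.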

Additional observations from a re-analysis of the deposited data

Results flagged for a closer look

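In 7 of the 84 groups of 4 libraries checked among named members, the highest or lowest library stood far from the other 3 by Dixon's criterion, which chance meets in about 1 in 20 groups. Control replicate 1 was low for MRPS18B (39.6 CPM against 51.5 to 52.5) and for MRPS6 (63.9 against 73.5 to 74.3). Control replicate 4 was high for MRPL45 (32.5 against 29.4 to 29.7) and control replicate 2 low for MRPL50 (13.2 against 13.9 to 14.1). Doxorubicin replicate 4 was high for MRPL33 (31.0 against 27.0 to 27.6) and low for MRPL39 (10.7 against 13.9 to 14.3). Replicate 3 of both compounds was low for MRPL41 (54.3 against 68.3 to 70.8).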

How the results depend on the processing

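With library totals alone in place of TMM, members called lower went from 31 to 52 in doxorubicin against control. In both compounds against control they went from 27 to 49, and members called higher went from 8 to 5. The mean summed level went from 3350 to 3577 CPM in control and from 3071 to 2975 in doxorubicin. With both compounds it went from 3132 to 3021 CPM. The cause was not tested. All 31 and 27 falls were among those 52 and 49. Leaving out each library in turn gave 5 to 7 members higher and 27 to 37 lower in doxorubicin against control, 0 to 1 higher when ferrostatin-1 was added, and 6 to 12 higher and 23 to 34 lower in both compounds against control. Libraries with the same number in different groups did not deviate together (residual r = -0.104 to 0.0976 in 12 pairs, against -0.102 to 0.142 in 36 pairs of different number), so the numbers were not taken as pairs. A fit with the replicate block gave 5 members higher and 31 lower in doxorubicin against control, 1 and 0 when ferrostatin-1 was added, and 8 and 26 in both compounds against control. Size factors from DESeq2, its Wald test, no filter, fitting only the 2 groups compared, thinning to 17523920 counts and keeping identifiers apart left each of these counts within 1.5 times. No called value of a member named here changed sign under an alternative run here. Of single values not called in either fit, 8, 17 and 4 changed sign in the 3 comparisons.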
